A study of Mus musculus with 31 samples.

Results

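The CC chemokines described here are 10 secreted attractants of white blood cells: Ccl2, Ccl3, Ccl4, Ccl5, Ccl6, Ccl7, Ccl8, Ccl11, Ccl20 and Ccl28. They were taken as every probe of the array that carries one of these gene names, which gave 10 probes, 1 for each gene, of 55681 probes on the array. RNA from the whole uterus of mice was hybridised to 31 arrays with 1 dye, 1 array per sample. The mice came from 2 lines, AF2 (background C57BL6/J) and MISS (background C57BL6/N), each with wild-type (WT) and mutant (KO) animals. All had their ovaries removed when 4 weeks old, rested for 3 weeks, and received under the skin castor oil with either no hormone (placebo, PLB) or 8 µg/kg of 17β-estradiol (E2), 6 h before sampling. This gives 8 groups, AF2 WT PLB, AF2 WT E2, AF2 KO PLB, AF2 KO E2, MISS WT PLB, MISS WT E2, MISS KO PLB and MISS KO E2, with 4 arrays in each except AF2 KO E2, which has 3. The labels do not describe the mutations; as general knowledge of these lines, the AF2 mutant carries an estrogen receptor α that lacks activation function 2, through which the nuclear receptor recruits coactivators, and the MISS mutant carries a receptor that cannot be palmitoylated and so does not reach the plasma membrane. Nothing in the labels says that the arrays of a group came from separately treated mice, so p-values measure the spread between these samples.

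Chemokines of the CC family are small secreted proteins with adjacent cysteines near their amino end. They bind receptors of the Ccr family, which sit on leukocytes and couple to G proteins, and they guide those cells along a concentration gradient. In the uterus, estradiol is known for a rapid swelling of the tissue and for an influx of leukocytes, eosinophils and monocytes among them. The members can be ordered by the cells they attract and the receptors they use. Ccl2 and Ccl7 act on Ccr2 of monocytes. Ccl3, Ccl4 and Ccl5 attract T cells, natural killer (NK) cells and macrophages. Ccl11 (eotaxin) acts on Ccr3 of eosinophils, mouse Ccl8 on Ccr8, Ccl20 on Ccr6 and Ccl28 on Ccr10.

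Every level below is the log2 of the processed spot signal minus the 75th percentile of the same array, so that 0 is the signal at that percentile and each unit is a doubling. That percentile lay between 531.8 and 1033 intensity units over the 31 arrays, between 61.8% and 77.1% of probes were well above background, and no spot was saturated. Precision is limited by how many arrays there are. A gene is said to have risen or fallen where limma's moderated test, fitted over all 27056 genes tested, gave a Benjamini-Hochberg adjusted p under 0.05, and values after ± are standard errors of that fit unless SD is written. The probe of the receptor gene itself, Esr1, lay between 2.53 and 3.47 on every array; in AF2 KO it was 0.49 ± 0.13 log2 units below AF2 WT under placebo (adjusted p = 0.0118), and a probe outside the changed part of the receptor says nothing on the mutation. Markers of uterine epithelium (10 of 10 genes), stroma (8 of 8) and smooth muscle (6 of 6) were all bright enough to be tested, which required a signal well above background on all arrays of 1 group or more. An array of MISS WT PLB (replicate 2) stands apart from its group by some of its white blood cell genes: the summed level of 10 T and NK cell markers was 17.7 times the 75th percentile there, against 7.67 at the lowest of the group. Its smooth muscle sum was also the highest of the group, at 1070 against a group median of 546. The B cell and neutrophil sums were highest on replicate 1 instead, and the eosinophil sum on replicate 4. An array of AF2 KO E2 (replicate 2) was the highest of its group for every tested member and for the T and NK cell sum (7.77, against 4.94 at the lowest). Several results that rest on either are given with and without it.

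On the mouse assembly mm9, to which the probe coordinates of the files refer, 8 of the 10 members lie in 2 clusters on chromosome 11. The first holds the probes of Ccl2 (chr11:81850650-81850709, plus strand), Ccl7 (chr11:81860656-81860715), Ccl11 (chr11:81876072-81876131) and Ccl8 (chr11:81930108-81930167), all on the plus strand. The second holds Ccl5 (chr11:83339296-83339355), Ccl6 (chr11:83401997-83402056) and Ccl3 (chr11:83461358-83461417) on the minus strand and Ccl4 (chr11:83478052-83478111) on the plus strand. Ccl20 lies at chr1:83115682-83115741 on the plus strand, and the Ccl28 probe was placed on an unlocalised piece of chromosome 13 at positions 362589 to 362648, on the minus strand. The probes are 60 bases long. Among the members and their neighbours Ccl9 and Ccl12, no pair of probes shared more than 9 bases in a row.

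RefSeq promoters of GRCm38.p6 were at hand for 5 of the 10 members, namely Ccl3, Ccl6, Ccl8, Ccl20 and Ccl28. The 250 bases before the start are printed for Ccl3, Ccl8 and Ccl28, since these had a promoter on record and differed between groups in the comparisons that follow; capitals mark a match to a searched motif on either strand.
Ccl3, chr11:83649379-83649628, minus strand, in which the 2 stretches in capitals are GGTCA, a single arm of the estrogen response element, starting 185 and 119 bases before the gene's start.
Ccl3: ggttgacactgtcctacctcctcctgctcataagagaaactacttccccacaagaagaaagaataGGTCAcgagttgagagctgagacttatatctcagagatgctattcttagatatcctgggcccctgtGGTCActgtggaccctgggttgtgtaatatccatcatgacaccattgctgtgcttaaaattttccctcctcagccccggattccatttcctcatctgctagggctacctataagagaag
Ccl8, chr11:82114935-82115184, plus strand, in which the capitals are a TATA box 32 bases before the start.
Ccl8: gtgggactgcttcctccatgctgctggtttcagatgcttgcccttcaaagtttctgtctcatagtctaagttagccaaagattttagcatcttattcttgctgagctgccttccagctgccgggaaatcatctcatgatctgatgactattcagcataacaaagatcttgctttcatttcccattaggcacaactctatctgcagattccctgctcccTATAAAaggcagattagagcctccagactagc
Ccl28, chr13:119623569-119623818, plus strand, without a match.
Ccl28: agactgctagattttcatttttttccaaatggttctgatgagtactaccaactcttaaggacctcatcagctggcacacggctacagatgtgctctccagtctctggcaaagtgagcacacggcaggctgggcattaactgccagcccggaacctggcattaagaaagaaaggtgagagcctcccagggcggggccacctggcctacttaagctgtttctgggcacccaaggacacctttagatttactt
The motifs searched were the TATA box (TATAAA, in 12.4% of 32851 promoters of the same length), AP-1 (TGANTCA, 6.75%), the full estrogen response element (GGTCANNNTGACC, 0.0639%), its single arm (GGTCA, 35.2%, which the full element contains), STAT (TTCNNNGAA, 7.02%) and the NF-κB consensus (7.25%). No printed promoter held the full element, an AP-1, a STAT or an NF-κB match. Ccl6 had 2 single arms, 235 and 88 bases before its start, and Ccl20 had 1 single arm at 174 bases and 1 NF-κB match at 80 bases. These are matches of letters in a window of 250 bases and carry no statement on binding.

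**Figure D1:**
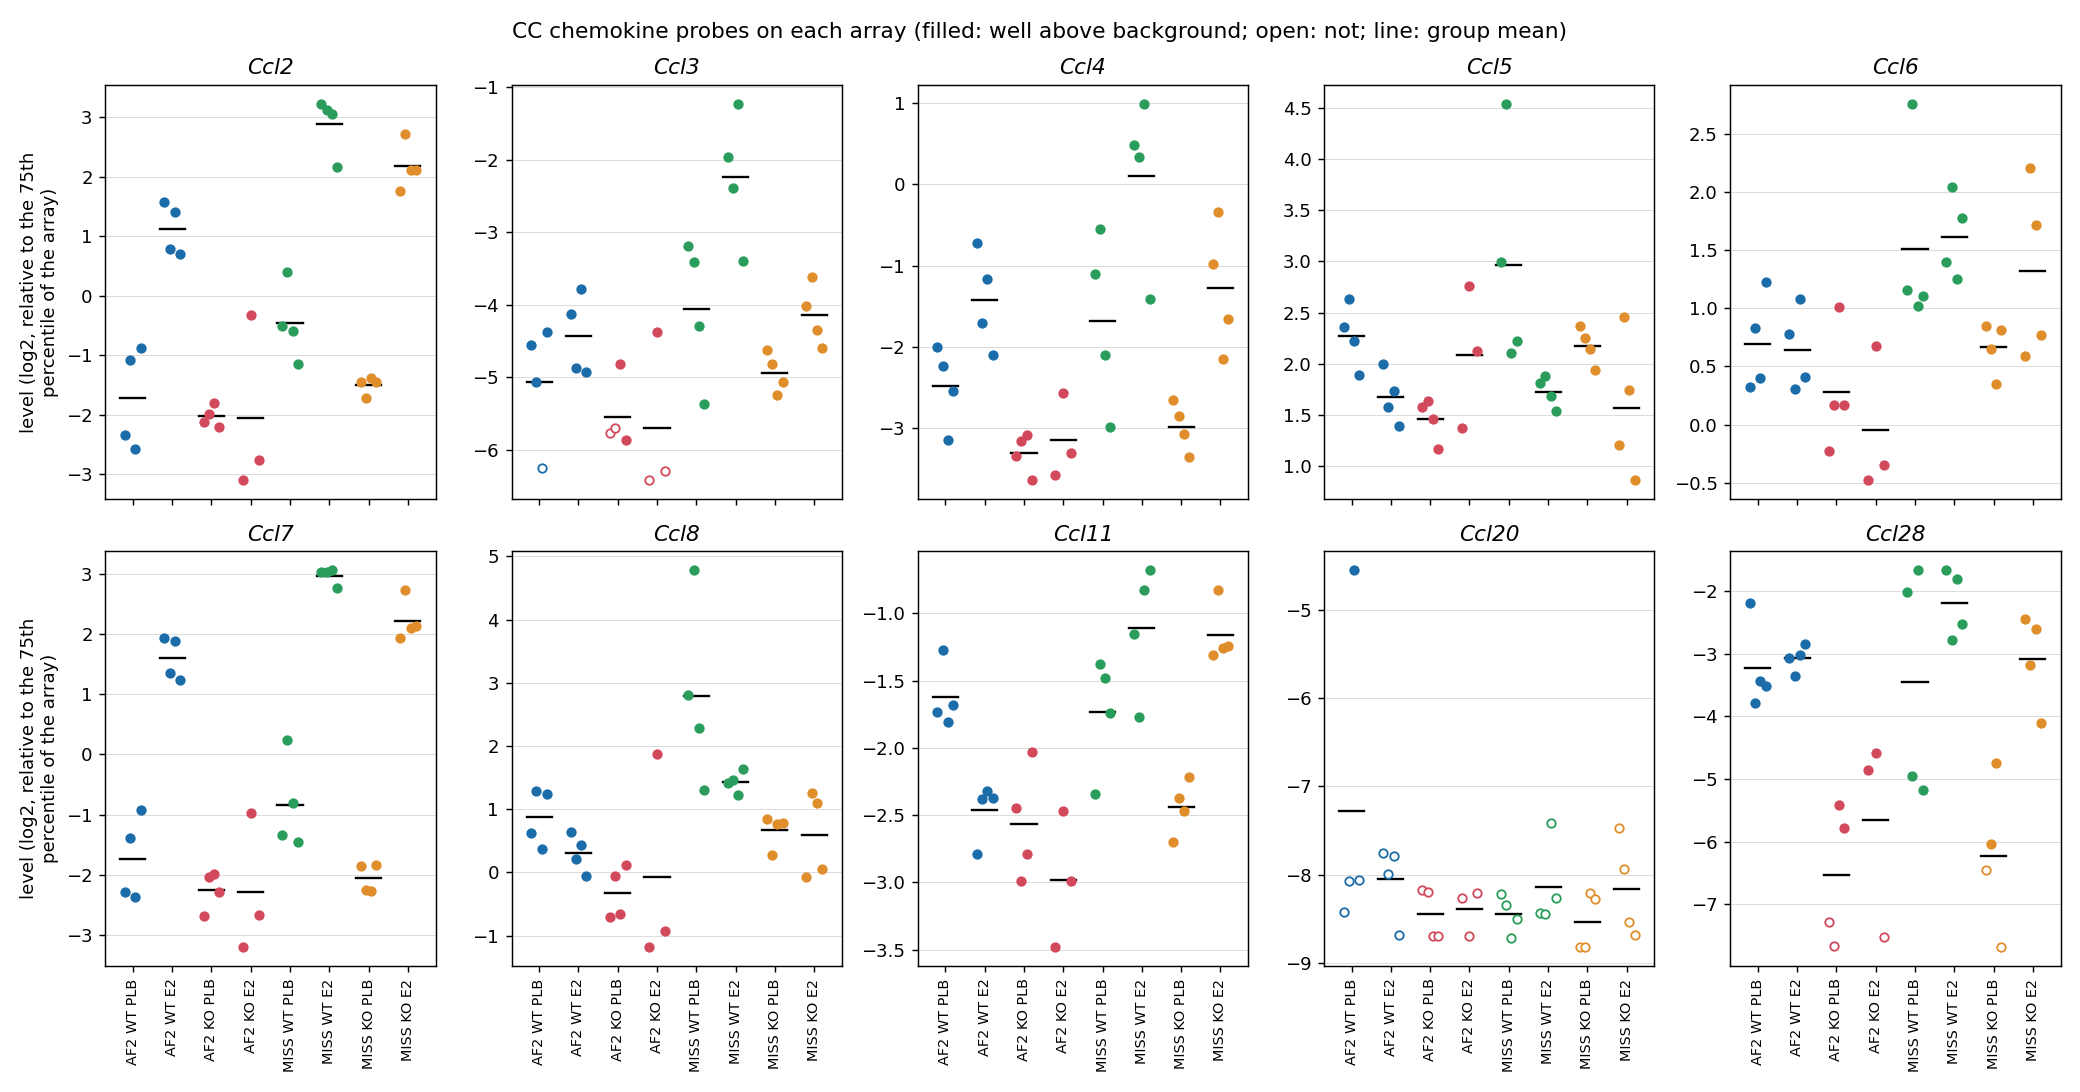
Level of each CC chemokine probe on every array (y axis, log2 relative to the 75th percentile of the array; each panel has its own scale) in the 8 groups (x axis, coloured by genotype). Filled points are well above background, open points are not, and lines are group means. Ccl2 and Ccl7 stand high in the E2 groups of AF2 WT, MISS WT and MISS KO and low in AF2 KO E2, and Ccl20 is open on 30 of 31 arrays.

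The monocyte attractants Ccl2 and Ccl7 rose with estradiol by 7.14-fold to 19.4-fold in AF2 WT, MISS WT and MISS KO uteri and did not change detectably in AF2 KO uteri. They were the members with the largest responses in each of the 3 responding genotypes. Ccl2 read -2.33, -1.08, -2.57 and -0.87 on the 4 placebo arrays of AF2 WT and 1.58, 0.79, 1.41 and 0.71 on the 4 E2 arrays. The groups did not overlap, and the rise was 2.84 ± 0.45 log2 units (adjusted p = 4.26e-06). Ccl7 read -2.29, -1.39, -2.37 and -0.92 under placebo and 1.93, 1.35, 1.88 and 1.23 under E2 in the same line, again with no overlap, a rise of 3.34 ± 0.38 (adjusted p = 2.41e-08). In MISS WT, Ccl2 read -0.50, 0.41, -0.59 and -1.14 under placebo and 3.23, 3.12, 3.05 and 2.17 under E2, a rise of 3.35 ± 0.45 (adjusted p = 2.73e-07). Ccl7 rose by 3.81 ± 0.38 there (adjusted p = 1.78e-09), from -1.34, 0.24, -0.81 and -1.46 to 3.03, 3.03, 3.06 and 2.76. Its 4 E2 arrays lay close together and above every placebo array. MISS KO gave the largest estimates for both genes. Ccl2 went from -1.45, -1.72, -1.38 and -1.44 to 1.77, 2.72, 2.12 and 2.12, a rise of 3.68 ± 0.45 (adjusted p = 6.1e-08), and Ccl7 from -1.86, -2.26, -2.27 and -1.83 to 1.93, 2.74, 2.10 and 2.13, a rise of 4.28 ± 0.38 (adjusted p = 2.22e-10). In whole tissue, more cells that make a chemokine and more RNA in each such cell cannot be told apart.

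In AF2 KO, Ccl2 read -2.12, -1.98, -1.80 and -2.20 under placebo and -3.10, -0.32 and -2.75 under E2. Ccl7 read -2.68, -2.04, -1.98 and -2.29 under placebo and -3.20, -0.98 and -2.67 under E2. For both genes, replicate 2 of E2 lay above every placebo array and the other 2 near or below the lowest placebo array. The estimated changes were -0.03 ± 0.48 for Ccl2 (95% interval -1.02 to 0.96) and -0.04 ± 0.41 for Ccl7 (-0.88 to 0.81). Without that array, the estimate for Ccl2 was -0.90, the lower end of its range over arrays left out in turn, and it did not pass the test in any of those fits (smallest adjusted p 0.269). For Ccl7 the estimate without that array was -0.69, again the lower end of its range, and no such fit passed (smallest adjusted p 0.38). The difference in response between AF2 KO and AF2 WT was tested itself: it was -2.86 ± 0.66 for Ccl2 (adjusted p = 0.000653) and -3.38 ± 0.56 for Ccl7 (adjusted p = 1.5e-05). These 2 were the members called of 9 tested, both towards a smaller response in the mutant, where 53% of all genes were called in either direction. Without AF2 KO E2 replicate 2 the differences were the largest of those with 1 array left out, -3.73 for Ccl2 and -4.03 for Ccl7. Within the 3 slides that hold all 4 AF2 groups, the difference was -4.89, -2.50 and -2.12 for Ccl2 and -4.74, -3.25 and -2.53 for Ccl7. With E2 on board, AF2 KO uteri held 9.04-fold less Ccl2 signal (-3.18 ± 0.48, adjusted p = 2.57e-06) and 14.8-fold less Ccl7 signal (-3.88 ± 0.41, adjusted p = 6.92e-09) than AF2 WT uteri.

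No difference in response between MISS KO and MISS WT was called for these genes, nor for any of the 9 tested members, where 0.876% of all genes were called; at an unadjusted p under 0.05 limma also gave 0 members, beside 10.9% of all genes. It was 0.33 ± 0.63 for Ccl2, with a 95% interval of -0.97 to 1.62, and 0.47 ± 0.54 for Ccl7, with an interval of -0.64 to 1.58. The intervals leave room for a difference of more than 1 log2 unit. The difference between the wild types, MISS WT minus AF2 WT, was 0.52 ± 0.63 for Ccl2 and 0.47 ± 0.54 for Ccl7, also not called. Ordered by group mean, Ccl2 stood highest in MISS WT E2 (2.90 ± 0.49, SD, n = 4), then in MISS KO E2 (2.18 ± 0.40) and AF2 WT E2 (1.12 ± 0.44). Below these 3 came MISS WT PLB (-0.46 ± 0.64), MISS KO PLB (-1.5 ± 0.15), AF2 WT PLB (-1.71 ± 0.86), AF2 KO PLB (-2.03 ± 0.18) and AF2 KO E2 (-2.05 ± 1.51, n = 3). The step from MISS WT E2 to MISS KO E2 was not called (-0.71 ± 0.45, adjusted p = 0.559), nor were the placebo differences of MISS KO from MISS WT (-1.04 ± 0.45, adjusted p = 0.348) and of AF2 KO from AF2 WT (-0.31 ± 0.45, 0.75). Ccl7 followed the same order at the top, at 2.97, 2.23 and 1.60. Beside these rises, the 10 macrophage and monocyte markers tested did not move one way: 2 rose and 4 fell in AF2 WT, 1 rose and 4 fell in MISS WT, and 2 rose and 3 fell in MISS KO. Their summed level was 61.1 to 74.9 times the 75th percentile in AF2 WT PLB and 39.6 to 50.2 in AF2 WT E2. It was 50.2 to 81.9 and then 44.1 to 54.0 in MISS WT, and 49.2 to 54.7 and then 39.6 to 52.1 in MISS KO, with overlap in both, and it went from 49.3 to 59.4 up to 67.9 to 85.2 in AF2 KO. Only 1 of the 10 markers rose in AF2 KO and 0 fell, with a median change of -0.11 beside 0.07 over all genes. The part of the summed level in the Ccl2 and Ccl7 values was not tested.

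**Figure D2:**
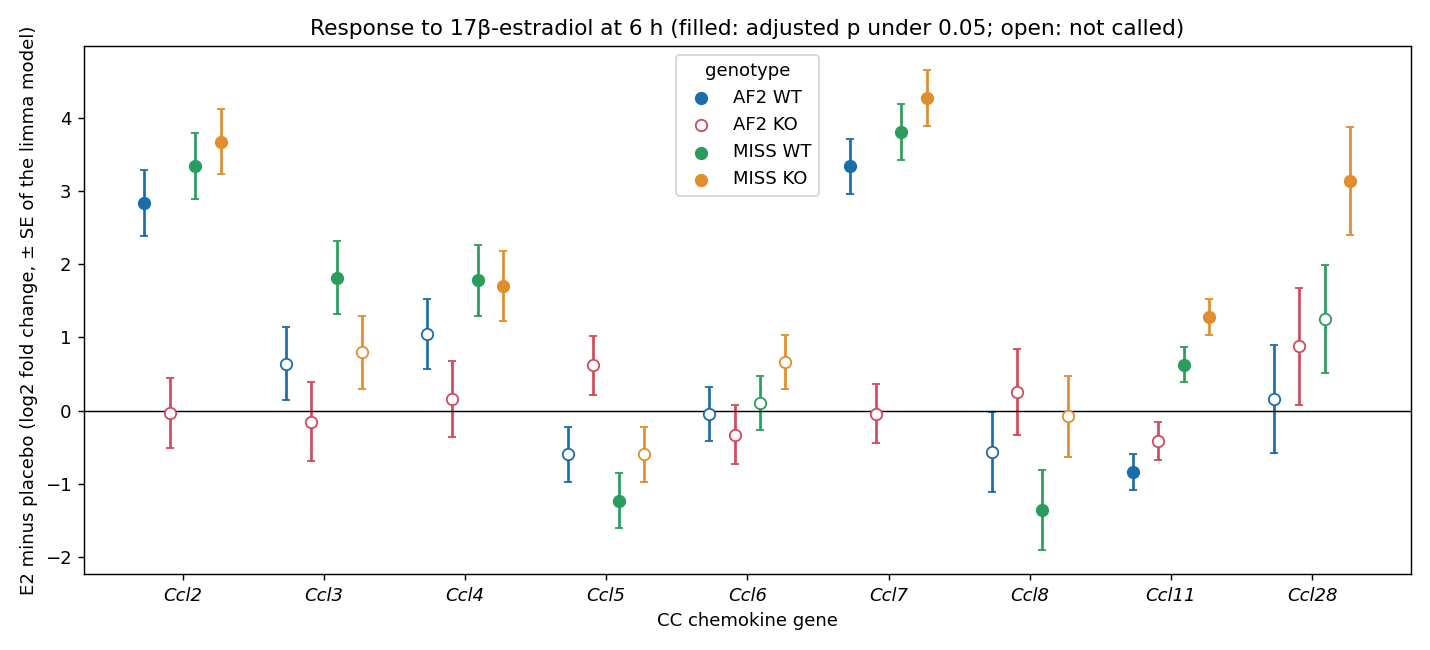
Estradiol response (y axis, E2 minus placebo in log2 units, with the standard error of the limma fit) of the 9 tested CC chemokines (x axis) in the 4 genotypes (colours). Filled points passed an adjusted p of 0.05 and open points did not. All 9 points of AF2 KO are open, while Ccl2 and Ccl7 lie at 2.84 and above in the other genotypes.

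Over the family, 3 of the 9 tested members were called in AF2 WT, where 57.8% of all genes were called, 0 in AF2 KO (3.97% of all genes), 7 in MISS WT (61.7%) and 5 in MISS KO (57.3%). The shares of members called therefore lay below the background in AF2 WT and near or above it in the MISS line, and they carry no statement about the family as such. At an unadjusted p under 0.05, too, no member passed in AF2 KO by limma, where 17.5% of all genes did. The median response of the 9 members was 0.16 in AF2 WT, -0.03 in AF2 KO, 1.25 in MISS WT and 1.28 in MISS KO, beside medians over all genes of -0.09, 0.07, 0.13 and 0.00. Ccl20, the ligand of Ccr6, was not well above background on 30 of 31 arrays and was not tested. Its one exception was replicate 3 of AF2 WT PLB, at -4.55, while the other 3 arrays of that group read -8.42, -8.07 and -8.06.

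Ccl3, Ccl4 and Ccl5, attractants of T cells and macrophages, did not move as a block. Ccl4 (macrophage inflammatory protein 1β) rose with estradiol in both genotypes of the MISS line, Ccl3 (macrophage inflammatory protein 1α) rose in MISS WT, and Ccl5 (RANTES) fell in MISS WT. Ccl4 read -1.10, -0.55, -2.10 and -2.98 on the placebo arrays of MISS WT and 0.48, 0.34, 0.99 and -1.41 on the E2 arrays. Replicate 4 of the E2 group lay below 2 of the placebo arrays, so the groups overlapped, and the rise was 1.78 ± 0.48 (adjusted p = 0.0021). In MISS KO, Ccl4 went from -2.65, -2.85, -3.07 and -3.35 to -0.98, -0.34, -2.15 and -1.65, a rise of 1.70 ± 0.48 without overlap (adjusted p = 0.00329). In AF2 WT it read -2.0, -2.23, -3.14 and -2.54 under placebo and -0.72, -1.70, -1.17 and -2.10 under E2. That difference, 1.05 ± 0.48, missed the threshold (adjusted p = 0.0614), and it passed with quantile normalization (1.25, adjusted p = 0.0292), with slide as a block (1.05, 0.0236) and in the authors' log2 matrix (1.05, 0.0283). In AF2 KO the change was 0.16 ± 0.52. The response differences were not called for Ccl4 in either line, at -0.89 ± 0.70 for AF2 (95% interval -2.34 to 0.55) and -0.08 ± 0.68 for MISS (-1.47 to 1.31).

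Ccl3 was dim throughout: its probe was well above background on all arrays of 5 groups, on 3 of 4 in AF2 WT PLB, on 2 of 4 in AF2 KO PLB and on 1 of 3 in AF2 KO E2. In MISS WT it read -3.19, -3.41, -4.29 and -5.37 under placebo and -1.96, -2.39, -1.23 and -3.40 under E2, a rise of 1.82 ± 0.50 (adjusted p = 0.00259). The lowest E2 array lay below the highest placebo array, so the groups overlapped. The rise in MISS KO was 0.80 ± 0.50 (adjusted p = 0.183) with no overlap, from -4.63, -4.81, -5.25 and -5.06 to -4.01, -3.62, -4.35 and -4.59. In AF2 WT the difference was 0.64 ± 0.50 (adjusted p = 0.289). Among E2-treated uteri, Ccl3 was 3.72-fold lower in MISS KO than in MISS WT (-1.90 ± 0.50, adjusted p = 0.0346), the 1 member called of 9 in that contrast, where 2.86% of all genes were called. The call was lost on leaving out any of 6 of the 8 arrays, 3 from each group, with adjusted p between 0.0602 and 0.175 and estimates of -1.94 to -1.56, and with quantile normalization (-1.84, adjusted p = 0.0636). The test of the response itself, MISS KO minus MISS WT, gave -1.02 ± 0.71 for Ccl3 (adjusted p = 0.636).

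Ccl5, a product of T and NK cells, was bright in all 8 groups. It read 2.99, 4.54, 2.10 and 2.22 on the placebo arrays of MISS WT and 1.81, 1.88, 1.68 and 1.54 on the E2 arrays. Every E2 array lay below every placebo array, and the fall was -1.23 ± 0.37 log2 units (adjusted p = 0.0057). Replicate 2 of the placebo group stood far above the next array; leaving out single arrays moved the estimate between -1.52 and -0.71, with the largest adjusted p at 0.045. In a fit of the MISS WT groups alone it was no longer called (adjusted p = 0.0551). In MISS KO the estimate was -0.60 ± 0.37 (adjusted p = 0.177), and the MISS response difference was not called (0.63 ± 0.53, adjusted p = 0.712). In AF2 WT, Ccl5 read 2.36, 2.63, 2.22 and 1.89 under placebo and 2.0, 1.58, 1.73 and 1.39 under E2 (-0.60 ± 0.37, adjusted p = 0.175). This AF2 WT estimate was called in a fit of the AF2 WT groups alone (adjusted p = 0.0238). Without MISS WT PLB replicate 2 and AF2 KO E2 replicate 2 together, AF2 WT and MISS KO were both called (-0.60 each, adjusted p = 0.048 and 0.0475). Neither array belongs to AF2 WT or MISS KO, so these estimates did not change. Only the shared standard error fell, from 0.37 to 0.26. In AF2 KO, Ccl5 read 1.58, 1.64, 1.46 and 1.17 and then 1.37, 2.76 and 2.12 (0.62 ± 0.40, adjusted p = 0.462), so the estimates of the 2 AF2 genotypes had opposite signs. Their difference of 1.22 ± 0.55 had an adjusted p of 0.0636, and it passed under 5 of the alternative settings, with estimates of 1.22 to 1.48. Leaving out single arrays moved it between 0.89 and 1.58 (adjusted p 0.0243 to 0.205); without AF2 KO E2 replicate 2 it was 0.89, and the AF2 KO change 0.29. T and NK cell markers moved beside Ccl5: in MISS WT, 7 of 10 fell and 0 rose with E2, and their summed level was 7.67 to 17.7 in the placebo group and 5.46 to 6.23 in the E2 group. In AF2 WT 2 of 10 fell (5.99 to 6.52 under placebo, 5.13 to 5.93 under E2). All 10 markers were well above background on at least 28 of 31 arrays, and their part in the Ccl5 result was not tested.

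Ccl11, the eosinophil attractant eotaxin, went in opposite directions in the wild types of the 2 lines. It fell by 1.79-fold in AF2 WT and rose by 1.54-fold in MISS WT and 2.43-fold in MISS KO. In AF2 WT it read -1.73, -1.27, -1.81 and -1.68 under placebo and -2.79, -2.38, -2.32 and -2.37 under E2. The groups did not overlap (-0.84 ± 0.24, adjusted p = 0.00402). In MISS WT it read -2.34, -1.38, -1.48 and -1.74 under placebo and -1.15, -1.77, -0.83 and -0.68 under E2. Here replicate 2 of E2 lay below 3 of the placebo arrays, and the rise of 0.63 ± 0.24 (adjusted p = 0.0267) rested on single arrays. It was lost without MISS WT PLB replicate 1 (0.43, adjusted p = 0.135), without MISS WT E2 replicate 3 (0.54, 0.0827) or replicate 4 (0.49, 0.102), and when the percentile was taken over probes above background on all arrays (0.41, 0.162); within slide 2 the sign was turned (-0.39). In MISS KO, Ccl11 went from -2.70, -2.37, -2.47 and -2.22 to -1.31, -0.83, -1.26 and -1.24, with no overlap and 1.28 ± 0.24 (adjusted p = 4.99e-05).

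The difference in Ccl11 response between the wild types, MISS WT minus AF2 WT, was 1.47 ± 0.34 (adjusted p = 0.00684). Ccl11 was the 1 member called of 9 in that contrast, where 9.46% of all genes were called, and it was called on leaving out each of the 16 arrays in turn. On the 4 slides the difference was 2.25, 0.72, 1.16 and 1.74. Line and substrain of mouse cannot be told apart in this contrast. AF2 KO uteri held less Ccl11 than AF2 WT uteri already under placebo, at -2.45, -2.99, -2.79 and -2.03, with no overlap (-0.94 ± 0.24, adjusted p = 0.0119). Without AF2 KO PLB replicate 2 that difference was -0.80 (adjusted p = 0.0554). E2 did not move it further by the test in AF2 KO (-0.41 ± 0.26, adjusted p = 0.448; arrays at -3.48, -2.47 and -2.99), and neither response difference was called, at 0.43 ± 0.36 for AF2 and 0.65 ± 0.34 for MISS. Of 4 eosinophil markers tested, 3 fell with E2 in AF2 WT, 1 in MISS WT and 0 in MISS KO. Their summed level went from 1.43 to 1.70 in AF2 WT PLB to 0.645 to 1.07 in AF2 WT E2, and from 1.79 to 2.25 in MISS WT PLB to 1.34 to 1.86 in MISS WT E2. The defining granule marker Epx was above background on 0 arrays and Siglecf on 7, and the part of eosinophils in the Ccl11 values was not tested.

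**Figure D3:**
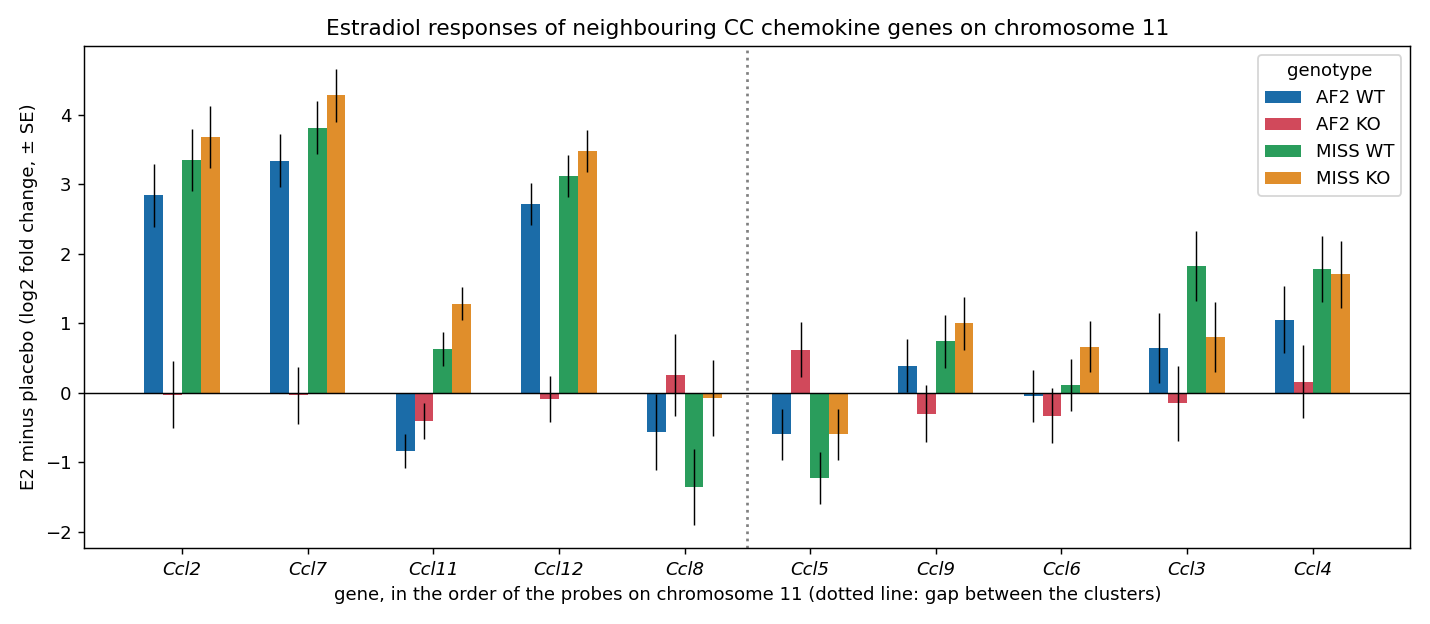
Estradiol response (y axis, E2 minus placebo in log2 units, bars with standard errors) of CC chemokine genes in the order of their probes on chromosome 11 (x axis), by genotype; Ccl9 and Ccl12 are neighbours outside the 10 members, and the dotted line marks the gap between the clusters. Ccl2, Ccl7 and Ccl12 rise by 2.71 or more in the 3 responding genotypes, while Ccl8, in the same cluster, does not rise.

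Neighbours on chromosome 11 differed in their responses. In the first cluster, Ccl2, Ccl7 and, beyond the members, Ccl12 (a further Ccr2 ligand, whose probe lies between those of Ccl11 and Ccl8) rose in AF2 WT, MISS WT and MISS KO; Ccl12 rose by 2.71, 3.12 and 3.48. Ccl11, which lies between Ccl7 and Ccl12, changed by -0.84, 0.63 and 1.28 in the same genotypes. Ccl8, at the end of the cluster, changed by -0.57, -1.36 and -0.08. Measured as the root mean square difference of the 8 group means after centring each gene, Ccl2 and Ccl7 differed by 0.30 log2 units and Ccl3 and Ccl4 by 0.32. Ccl11 was nearest to Ccl6 (0.30), which lies in the other cluster, and stood 1.68 from Ccl7. The largest distance, 2.27, was that between Ccl5 and Ccl7.

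Ccl8, a mouse ligand of Ccr8, varied most between the wild types without hormone. It read 2.81, 4.78, 2.29 and 1.31 in MISS WT PLB and 0.62, 1.29, 0.37 and 1.24 in AF2 WT PLB. The lowest MISS WT array lay just above the highest AF2 WT array, and the difference was 1.92 ± 0.55 (adjusted p = 0.0211), the 1 member called of 9 where 11.8% of all genes were called. Without MISS WT PLB replicate 2 it was 1.26 and not called (adjusted p = 0.105), and it was also lost without AF2 WT PLB replicate 1 (1.84, 0.0593) or replicate 3 (1.75, 0.0809). E2 arrays of MISS WT read 1.42, 1.46, 1.23 and 1.63, which gave a fall of -1.36 ± 0.55 (adjusted p = 0.0339). Without MISS WT PLB replicate 2 that fall was -0.70 (adjusted p = 0.227), it was also lost without MISS WT PLB replicate 1 (adjusted p = 0.0566) and without MISS WT E2 replicates 1, 2 or 3 (0.0577, 0.0543 and 0.0701), and within slide 4 Ccl8 was 0.31 higher under E2. In the other genotypes the E2 estimates were -0.57 ± 0.55 in AF2 WT, 0.25 ± 0.59 in AF2 KO and -0.08 ± 0.55 in MISS KO, none of them called. Without AF2 KO E2 replicate 2 the AF2 KO value was -0.72. None of 5 B cell markers was called in the wild-type contrast, where their summed level was 13.4 to 58.1 in MISS WT PLB and 3.46 to 11.8 in AF2 WT PLB, and 5 of 10 T and NK cell markers were higher in MISS WT. Their part in the Ccl8 values was not tested.

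**Figure D4:**
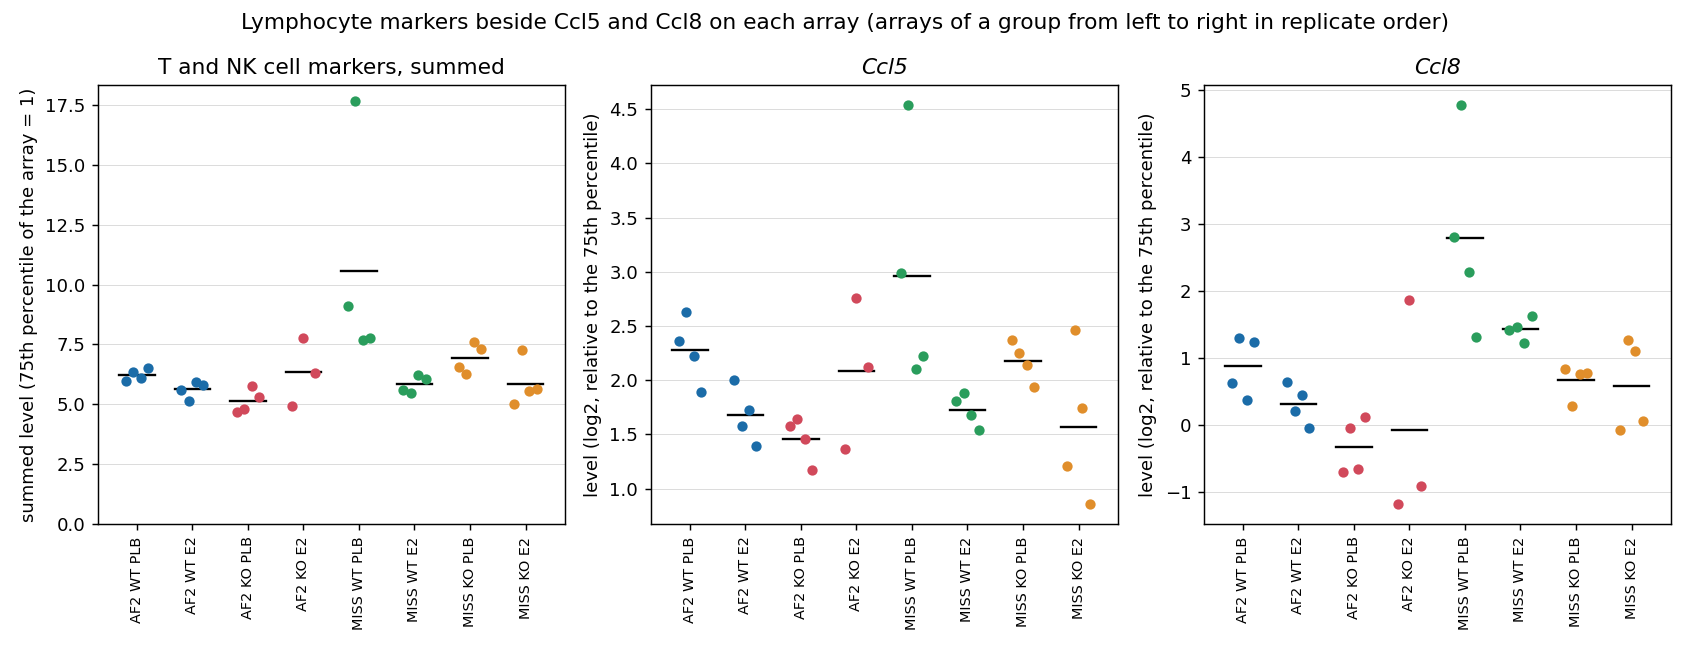
Summed level of 10 T and NK cell markers (left, 75th percentile of the array = 1, linear axis from 0) beside the log2 levels of Ccl5 (middle) and Ccl8 (right) on every array of the 8 groups (x axis); lines are group means and arrays stand in replicate order. The second array of MISS WT PLB is the highest point of all 3 panels, at 17.7, 4.54 and 4.78.

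Ccl6, which binds Ccr1 and is made by myeloid cells, gave no called difference in any of the 4 E2 comparisons. Its group means ran from -0.05 ± 0.64 (SD, n = 3) in AF2 KO E2 to 1.62 ± 0.36 (SD, n = 4) in MISS WT E2. The E2 estimates were -0.05 ± 0.37 in AF2 WT, -0.33 ± 0.40 in AF2 KO, 0.11 ± 0.37 in MISS WT and 0.66 ± 0.37 in MISS KO, and the sign of the MISS WT value turned with quantile normalization (-0.09). In MISS WT PLB, replicate 2 read 2.76 against 1.16, 1.02 and 1.11 on the other arrays.

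Ccl28, the mucosal epithelial chemokine that attracts plasma cells through Ccr10, was lower in AF2 KO than in AF2 WT without hormone, and rose with estradiol in MISS KO. AF2 WT PLB arrays read -2.19, -3.79, -3.44 and -3.51, and AF2 KO PLB arrays -7.28, -7.67, -5.41 and -5.78. The groups did not overlap, and the difference was -3.30 ± 0.74 (adjusted p = 0.00458); only 2 of the 4 AF2 KO PLB arrays were well above background, so the lower values are loosely measured. Within the 4 slides it was -5.09, -3.88, -1.98 and -2.27. In MISS WT PLB the arrays fell apart, at -2.01, -4.95, -1.67 and -5.17, and MISS KO PLB read -6.45, -6.04, -4.74 and -7.68, with 2 of 4 above background. That difference, -2.77 ± 0.74, missed the threshold over all genes (adjusted p = 0.0752). It passed with slide as a block (adjusted p = 0.0141). It also passed without MISS WT PLB replicate 2 (-3.27, 0.036) or replicate 4 (-3.35, 0.017), the low arrays of that group. Leaving out single arrays moved it between -3.35 and -2.18, with the largest adjusted p at 0.292.

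Under E2, MISS KO arrays read -2.44, -3.18, -2.60 and -4.11 for Ccl28, each above every MISS KO placebo array, a rise of 3.14 ± 0.74 (adjusted p = 0.00069); as given, 2 of the 4 placebo arrays were well above background. Within the 4 slides it was 4.01, 2.86, 2.14 and 3.56. MISS WT E2 arrays read -1.67, -2.79, -1.81 and -2.52, a difference of 1.25 ± 0.74 from placebo (adjusted p = 0.148), and AF2 WT E2 arrays -3.07, -3.36, -3.02 and -2.85 (0.16 ± 0.74). The difference in response between MISS KO and MISS WT, 1.89 ± 1.05, was not called (adjusted p = 0.532, 95% interval -0.28 to 4.06). AF2 KO E2 arrays read -4.85, -4.58 and -7.52 (0.88 ± 0.80 against placebo). Treated AF2 KO uteri stayed below treated AF2 WT uteri by -2.58 ± 0.80 (adjusted p = 0.00775), a difference that was -1.64 without AF2 KO E2 replicate 3 (adjusted p = 0.102). Of 10 uterine epithelium markers, 3 were higher and 1 lower in AF2 KO than in AF2 WT under placebo. Their summed levels were 178 to 224 against 124 to 160. In MISS KO against MISS WT under placebo none was called (126 to 159 against 124 to 146). The part of the epithelium in the Ccl28 values was not tested.

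Without hormone, every one of the 9 tested members had a lower mean in the mutant than in the wild type of its line, in AF2 and in MISS. All members of a line were read on the same arrays, so these signs are not independent. The share of all genes that were lower in the mutant was not counted. The members called were 2 in AF2, Ccl11 and Ccl28, where 9.6% of all genes were called, and 0 in MISS, where 0.909% were called. At an unadjusted limma p under 0.05, Ccl2, Ccl4, Ccl5, Ccl6, Ccl7, Ccl8, Ccl11 and Ccl28 passed in MISS, 8 of 9 members beside 11.3% of all genes. In AF2, only Ccl5, Ccl8, Ccl11 and Ccl28 passed at that level, where the share of all genes was not counted. Part of the MISS result rests on MISS WT PLB replicate 2. Without that array the Ccl5 difference went from -0.79 to -0.26, that of Ccl6 from -0.85 to -0.43 and that of Ccl8 from -2.13 to -1.47. Those of Ccl2 (-1.04 to -0.75), Ccl4 (-1.3 to -0.92), Ccl7 (-1.21 to -0.85) and Ccl11 (-0.7 to -0.59) shrank too. The Ccl28 difference grew, from -2.77 to -3.27. The median difference of the 9 members was -0.81 in AF2 and -1.04 in MISS, beside -0.07 and 0.04 over all genes, and 4 members in each line had groups that did not overlap, where 14.8% of all genes in AF2 and 5.7% in MISS had such groups. For Ccl8 in the MISS line the difference was -2.13 ± 0.55 (adjusted p = 0.0606), and it passed with normexp background correction (-2.10, adjusted p = 0.0362), with slide as a block (-2.13, 0.0334) and in the authors' log2 matrix (-2.21, 0.0404). Without MISS WT PLB replicate 2 alone it was -1.47 and not called. Over single arrays left out, its adjusted p ran from 0.00815 to 0.203. Without AF2 KO E2 replicate 2 as well, an array outside this contrast, the estimate stayed at -1.47 with a smaller standard error (0.33, adjusted p = 0.0289). Of 7 immune marker lists, those of macrophages, neutrophils, T and NK cells, B cells and dendritic cells had a negative median in both lines, between -0.77 and -0.07, while the eosinophil median was -0.68 and 0.17 and the mast cell median 0.75 and 0.14. The macrophage median of -0.07 in AF2 was the same as that of all genes. Few markers were called. In AF2, 1 macrophage marker was higher and 1 lower. The T and NK cell, dendritic cell and eosinophil lists had 1 lower marker each there. In MISS, 1 macrophage marker was lower and no other was called. The part of these cells in the members' values was not tested.

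Under E2, 5 of 9 members were called between AF2 KO and AF2 WT, all lower in the mutant, where 57.3% of all genes were called: Ccl2, Ccl3, Ccl4, Ccl7 and Ccl28. Ccl4 was 3.29-fold lower (-1.72 ± 0.52, adjusted p = 0.00577) and Ccl3 2.40-fold (-1.27 ± 0.54, adjusted p = 0.0477). The Ccl3 call was lost with normexp correction (-0.23, adjusted p = 0.475), in the authors' matrix (-0.56, 0.0834) or without AF2 KO E2 replicate 1 (-0.90, 0.224) or replicate 3 (-0.97, 0.189), and without AF2 WT E2 replicate 1 (-1.17, 0.0958) or replicate 3 (-1.05, 0.127). Without AF2 KO E2 replicate 2, Ccl6 (-1.06, adjusted p = 0.0439), Ccl8 (-1.36, 0.0385) and Ccl11 (-0.77, 0.0235) were lower as well, which made 8 members. In that fit, 14468 of 27056 genes were called in either direction.

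Among the receptors, 8 of 10 Ccr genes were tested. With E2, 4 fell and 0 rose in AF2 WT, 0 changed in AF2 KO, 6 fell and 0 rose in MISS WT, and 1 rose and 2 fell in MISS KO. Beside these counts, 57.8%, 3.97%, 61.7% and 57.3% of all genes were called in either direction. Ccr2, the receptor of Ccl2 and Ccl7, fell by 0.79 in AF2 WT and by 0.51 in MISS WT and changed by -0.08 in MISS KO, so that it did not follow its ligands; its response differed between AF2 KO and AF2 WT by 1.38. Ccr3, the receptor of Ccl11, fell by 0.60, 0.36 and 0.36 in AF2 WT, MISS WT and MISS KO, but its MISS WT value was 0.01 with normexp correction. Ccr6, the receptor of Ccl20, fell by 1.07 in MISS WT, and Ccr10, the receptor of Ccl28, fell by 0.76 in AF2 WT and 0.84 in MISS WT. The Ccr1 probe was above background on 0 arrays and was not tested.

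The atypical receptors, most of which bind CC chemokines and clear or carry them without calling cells, were 4 of 4 tested. Ackr2, the scavenger of inflammatory CC chemokines including Ccl2, Ccl3 and Ccl5, rose by 2.09, 1.31 and 1.65 in AF2 WT, MISS WT and MISS KO. Ackr4 fell by 2.83, 2.89 and 3.67, and its probe was above background on 21 of 31 arrays. Ccrl2 fell by 1.63, 1.52 and 1.84. For all 3 the response in AF2 KO differed from that in AF2 WT, by -2.27, 2.40 and 1.66. Of 8 other CC chemokines tested, 3 rose and 2 fell in AF2 WT, 0 changed in AF2 KO, 2 rose in MISS WT, and 4 rose and 1 fell in MISS KO. The shares of all genes called there were 57.8%, 3.97%, 61.7% and 57.3%. Ccl25 rose by 1.14, 1.65 and 1.79, and Ccl19, which acts on Ccr7, rose by 0.97 in AF2 WT and 0.82 in MISS KO.

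Genes of the NF-κB pathway, whose factors drive transcription of Ccl2 and other inflammatory chemokines, were mostly higher with E2 where Ccl2 and Ccl7 were. Of 14 tested, 9 rose and 2 fell in AF2 WT, 1 rose in AF2 KO, 10 rose and 1 fell in MISS WT, and 10 rose and 1 fell in MISS KO. For these genotypes in turn, 57.8%, 3.97%, 61.7% and 57.3% of all genes were called in either direction. Bcl3 rose by 3.41, 3.54 and 3.39, Relb by 0.83, 1.42 and 1.47 and Nfkb2 by 0.59, 1.28 and 1.22, while Ikbke fell by 1.65, 1.59 and 1.64. The median of the 14 was 0.42, 0.65 and 0.65, beside -0.09, 0.13 and 0.00 over all genes. Among 8 genes of inflammatory cytokines and endothelial adhesion, 6 rose in AF2 WT, 5 in MISS WT and 7 in MISS KO, and 1 fell in each of the 3; in AF2 KO 0 changed. The selectin Sele rose by 4.84, 5.62 and 5.62, and Il6 by 4.26, 4.62 and 3.52; each was above background on 12 of 31 arrays. Icam1 rose by 2.49, 2.82 and 2.68 and Selp by 2.30, 2.65 and 2.18. These genes were listed with results of the data known and lend no support to the members' values.

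Outside the family, the genes whose 8 group means lay nearest to those of a member after centring were as follows. Those nearest to Ccl7 were Tlr12 (root mean square difference 0.28 log2 units), Nts (0.29) and Trabd2b (0.33), and those nearest to Ccl2 were Cav3 (0.35), Tlr12 (0.37) and Nts (0.38). Tesc lay nearest to both Ccl3 (0.24) and Ccl4 (0.23). Among the 8 members called in at least 1 E2 comparison, Ccl5 had the closest match, Ltb at 0.11, followed by Tbx21 at 0.13. Ifitm6 and Cd300lb lay 0.29 from Ccl11. The match was loosest for Ccl28, for which Ppp2r2b lay 0.49 and Tshr 0.52 away. These distances describe group means over 8 groups and make no statement on shared control.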

How the data were processed

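Total RNA of 31 uterus samples was hybridised to 1-colour (Cy3) Agilent arrays. Per the file headers and the submitters' processing notes, the authors extracted spots with Agilent Feature Extraction 10.10.1.1; the deposited processed signal is an intensity, background-subtracted and not normalized between arrays, and deposited 0/1 marks give outlier, saturated and well-above-background spots. The authors' deposited series matrix holds log2 values of 43753 probes (83 empty cells, column medians 7.56); its centring step is not given in the sources used here, and it served as an alternative. The notes also name limma, with no step.

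From the processed signal, outlier spots were dropped, spots of a probe averaged in log2, and the 75th percentile of each array subtracted. Probes well above background on all arrays of 1 group or more (40332) were tested, each gene by its brightest such probe (27056 genes; 27235 probes named through RefSeq accessions). limma 3.58.1 in R 4.3.3 fitted 8 group means over all arrays (23 residual degrees of freedom, prior 2.38), with Benjamini-Hochberg adjustment over all genes and a threshold of 0.05. The fit was tested on simulated data. The nearest genes by pattern and up to 4 called genes of each list were named, plus Ccr receptors; 1 item is not reported here. Replicate numbers follow the order of deposition; arrays lie on 4 slides. Alternatives were quantile normalization, normexp (offset 50), another percentile, no or a strict filter, probe means, the authors' matrix, slide as a block, fits of the compared groups only, and each array left out; leaving out 2 arrays together and the contrasts between genotypes under E2 were added after seeing the data. Members and lists were chosen with earlier results of these data known.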

Additional observations from a re-analysis of the deposited data

Results flagged for a closer look

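In groups of 4 arrays, 8 of 70 member groups (11.4%) had 1 array farther from its neighbours than Dixon's test at 95% allows, where chance gives about 1 in 20. For Ccl2 and Ccl7 it was the lowest array of MISS WT E2, replicate 4, at 2.17 and 2.76. Ccl6 was high on MISS WT PLB replicate 2 (2.76), and Ccl3 on AF2 KO PLB replicate 3 (-4.82). Ccl8 was low on MISS KO PLB replicate 2 (0.28). Ccl11 was low on AF2 WT E2 replicate 1 (-2.79) and high on MISS KO E2 replicate 2 (-0.83). Ccl20 was above background on AF2 WT PLB replicate 3 alone (-4.55).

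The estradiol response differed between genotypes by the interaction test of limma (adjusted p under the threshold over all genes) for the following. AF2 KO minus AF2 WT was -2.86 for Ccl2, -3.38 for Ccl7, -2.80 for Ccl12 and -0.99 for Ccl25. Among receptors it was 1.38 for Ccr2, 0.69 for Ccr3, -2.27 for Ackr2, 2.40 for Ackr4 and 1.66 for Ccrl2. Among NF-κB genes it was -3.09 for Bcl3, 1.51 for Ikbke, -0.69 for Nfkb2 and -0.85 for Relb. Among cytokine and adhesion genes it was -3.87 for Il6, -5.03 for Sele, -2.63 for Icam1 and -2.28 for Selp. MISS WT minus AF2 WT was 1.47 for Ccl11, 0.68 for Nfkb2 and 0.58 for Relb.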

How the results depend on the processing

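No paired analysis was possible because the labels do not tie mice of one group to mice of another. Slide was used as a block instead, with values within slides; beside the calls named in the report, it added among the members Ccl5 for the AF2 response difference (1.37, adjusted p = 0.0155), Ccl2 between the wild types under placebo (1.26, 0.0457) and Ccl4 between MISS KO and MISS WT under E2 (-1.38, 0.0365). Calls over all 27056 genes rose with the block too. In the order of these contrasts, they went from 14338 to 17204, from 3197 to 5697 and from 773 to 1963. The members called moved from 3 to 5 in AF2 WT with only the compared groups. They moved to 5 as well without MISS WT PLB replicate 2 and AF2 KO E2 replicate 2 together, neither an AF2 WT array. In MISS WT they moved from 7 to 4 with only the compared groups, and between the wild-type responses from 1 to 2 with normexp. Over all 27056 genes, the calls in AF2 WT went from 15651 to 14549 and to 15780 under these settings. Those in MISS WT went from 16691 to 15978, and those between the wild-type responses from 2560 to 2881. Under placebo, the members called in AF2 KO against AF2 WT moved from 2 to 4 with only the compared groups and 1 with the strict filter. There were 4 without both arrays, neither of which is in this contrast. All genes called there were 2598, then 1850, 1911 of 22361 and 2756. For MISS KO against MISS WT, members moved from 0 to 1 with normexp or the authors' matrix and 2 with slide as a block or without both arrays. All genes called there were 246, then 323, 369 of 28875, 831 and 307. Between the wild types, members moved from 1 to 2 with normexp or slide as a block and 0 with only the compared groups. All genes called there were 3197, then 5895, 5697 and 1344. Leaving out single arrays gave 3 to 4 members in AF2 WT (all genes called: 14870 to 15587) and 0 in AF2 KO (257 to 1031). It gave 5 to 8 in MISS WT (15637 to 16505) and 5 to 6 in MISS KO (14750 to 15026). For the response differences it gave 2 to 3 in AF2 (13175 to 14260), 0 in MISS (140 to 362) and 1 between the wild types (1814 to 2836). For the placebo contrasts it gave 1 to 2 in AF2 (1669 to 2932), 0 to 3 in MISS (65 to 694) and 0 to 3 between the wild types (1967 to 3685). Among called results, signs turned within single slides for Ccl8 (0.31, slide 4) and Ccl11 (-0.39, slide 2) in MISS WT, Ccr3 (0.01, slide 2) and Ccr9 (0.28, slide 2) in MISS KO and Ccr10 (0.02, slide 1) in AF2 WT, and for Ccr3 with normexp (0.01, adjusted p = 0.956) in MISS WT. The cause was not tested. Ccl2 and Ccl7 kept sign and call in the E2 comparisons of AF2 WT, MISS WT and MISS KO in every fit run. Signal over background limits Ccl3, Ccl20 and Ccl28.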
